A study of Mus musculus with 12 samples.

Results

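The 8 genes examined here encode the core of the interferon receptors and of the JAK-STAT pathway behind them: Ifngr1, Ifngr2, Ifnar1, Ifnar2, Jak2, Tyk2, Stat2 and Irf9. They were taken by symbol from the array annotation, which gave 15 probe sets among the 34945 probe sets with 1 named gene, or 8 of 18193 named genes. The set was chosen by 1 measured value, the lower Ifngr2 signal with INV16 than with the INV16 ACD mutant, so that contrast is given as a description and was not tested. The comparisons with MIB control share arrays with it, so the Ifngr2 tests are not independent of the choice.

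Interferon gamma is bound by Ifngr1, the ligand-binding chain, and Ifngr2, the accessory chain that carries Jak2 into the complex. Type I interferons bind Ifnar2, the high-affinity chain, and Ifnar1, the chain that carries Tyk2. The kinases phosphorylate STAT proteins. Stat2 and its DNA-binding partner Irf9 belong to the factor ISGF3, which acts at the interferon-stimulated response element (ISRE), whereas interferon gamma acts mainly through the gamma-activated site (GAS). In bone marrow, both interferon types are known to push resting stem cells into cycle.

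The arrays came from normal mouse bone marrow cells sorted as lineage-negative, c-Kit+, Sca-1+ and Flt3-negative (KSLF), which are primitive blood progenitors; the strain and age of the mice are not given in the sources used here. In all 3 groups the cells spent 24 h in culture (10% serum, IL-6 at 5 ng/ml and SCF at 50 ng/ml), then 4 h with viral supernatant and polybrene and another 20 h without it, and the GFP-positive ones were sorted for RNA. The groups were the empty MIB control retrovirus (5 arrays, numbered 3 to 7), INV16 retrovirus (4 arrays, numbered 1 to 4) and INV16 ACD mutant retrovirus (3 arrays, numbered 1 to 3). INV16 is the CBFB-MYH11 fusion protein of acute myeloid leukaemia, which binds RUNX factors, and the ACD mutant lacks its assembly competent domain and is described by the depositors as non-leukemogenic. Per the design text each replicate was its own sort, transduction and array, and p-values refer to the spread among these; the arrays sample the cells about a day after the virus was added.

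INV16 replicate 4 stood apart and was kept out of all group means and tests: its correlations with the other arrays were 0.895 to 0.917, against 0.985 to 0.996 among those 11 arrays, and its mast cell markers Cma1 and Fcer1a read 12.70 and 13.31, against 4.50 to 5.27 and 4.27 to 5.74. The other 11 arrays read Kit at 10.26 to 11.43 and Cd34 at 11.16 to 12.35, and also Flt3, against whose surface protein the cells were sorted, at 8.03 to 9.76. The T cell marker Cd3e read 6.72 to 7.08 and the macrophage marker Csf1r 8.32 to 10.52. The BioB and BioC spike-in controls, which are added to the hybridisation mix, split the arrays: their BioC minus BioB difference was 1.17 to 1.32 in INV16 replicates 1 to 3 and in replicates 3 to 5 of MIB control (set A), and -0.03 to 0.19 in MIB control replicates 6 and 7, the INV16 ACD mutant arrays and INV16 replicate 4 (set B). INV16 was therefore also set against MIB control within set A, and the mutant within set B. The share of all probe sets whose groups do not overlap was not counted, either within these sets or over the 11 arrays. Over the 11 arrays it was counted for genes only. The 3′ minus 5′ difference of Gapdh, which grows as RNA is degraded, was 3.17 in INV16 ACD mutant replicate 1 and 3.64 in INV16 replicate 4, and 1.10 to 1.98 on the remaining arrays.

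Ifnar2, Il10rb, Ifnar1 and Ifngr2 lie next to each other in that order on mouse chromosome 16, as 4 neighbouring protein-coding genes of the RefSeq annotation. The other members lie elsewhere, Ifngr1 and Stat2 on chromosome 10, Irf9 on 14, Jak2 on 19 and Tyk2 on 9. The promoter windows of all 8 members (250 bases before to 50 after the annotated start, RefSeq, GRCm38.p6) were searched on both strands for 3 motifs: the ISRE core (GAAA, any 2 bases, GAAA), the GAS TTCNNNGAA and the RUNX core TGNGGT. Shown here are the 250 bases before the start of Ifngr2 (chr16:91546809-91547058, + strand) and Ifnar2 (chr16:91372533-91372782, + strand), the members with a called probe set. For Ifnar2 this was not the probe set that represents the gene. Those of Stat2 (chr10:128270248-128270497, + strand), the member with an ISRE match, are also shown. Capitals mark the matches: in Ifngr2 overlapping RUNX cores, in Ifnar2 a GAS and then a RUNX core, and in Stat2 an ISRE core read on the opposite strand and then a RUNX core.
Ifngr2: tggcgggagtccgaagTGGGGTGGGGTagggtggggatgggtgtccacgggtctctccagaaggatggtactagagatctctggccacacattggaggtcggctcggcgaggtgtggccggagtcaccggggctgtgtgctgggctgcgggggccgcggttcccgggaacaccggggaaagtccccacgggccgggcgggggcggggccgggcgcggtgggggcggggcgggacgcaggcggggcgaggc
Ifnar2: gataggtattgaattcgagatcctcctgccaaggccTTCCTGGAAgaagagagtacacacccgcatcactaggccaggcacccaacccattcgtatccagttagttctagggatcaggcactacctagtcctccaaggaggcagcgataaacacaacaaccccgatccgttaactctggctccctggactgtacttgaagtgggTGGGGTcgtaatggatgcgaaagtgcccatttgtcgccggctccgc
Stat2: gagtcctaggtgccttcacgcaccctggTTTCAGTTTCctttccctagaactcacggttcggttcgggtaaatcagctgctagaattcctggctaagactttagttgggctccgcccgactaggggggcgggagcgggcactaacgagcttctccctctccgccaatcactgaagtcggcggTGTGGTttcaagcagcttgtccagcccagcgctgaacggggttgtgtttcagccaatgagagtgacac
The RUNX core is short and was present in 45.8% of the 32851 promoter windows in the RefSeq table, against 8.30% for the GAS and 3.44% for the ISRE core. Ifngr2 held its overlapping RUNX cores from base -234 to -224 and no ISRE or GAS match. In Ifnar2 the GAS lay at -214 to -206 and the RUNX core at -46 to -41, and in Stat2 the ISRE core lay at -222 to -213. Ifnar1 had a GAS match across its start (-5 to 4) and 1 RUNX core, Tyk2 had 2 RUNX cores, and Ifngr1, Jak2 and both annotated starts of Irf9 had none of the 3. These matches say only where the letters occur in the window.

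Levels below are the deposited log2 signals, so a difference of 1 is a doubling, and they are compared within a probe set only. A call means a limma adjusted p under 0.05, with Benjamini-Hochberg adjustment over the 12918 genes tested; each gene was represented by its probe set with the highest mean. Probe sets of the members that did not represent their gene were adjusted over the 22694 probe sets past the same filter. The arrays hold bulk RNA, in which fewer cells of a type and less RNA per cell cannot be told apart.

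Among the members, Ifngr2 had the largest difference from MIB control in both comparisons. Its probe set 1423557_at read 7.31, 7.25, 7.61, 7.78 and 6.36 in MIB control replicates 3 to 7, 6.36, 6.32 and 6.70 in INV16 replicates 1 to 3, and 8.61, 8.35 and 8.38 in INV16 ACD mutant replicates 1 to 3. All 3 mutant arrays were above every control array, while the INV16 arrays were below 4 of the 5 controls and around the lowest, replicate 7. INV16 replicate 4 read 7.09, inside the control range. The means were 7.26 ± 0.55, 6.46 ± 0.21 and 8.45 ± 0.15 (SD, n = 5, 3 and 3) in MIB control, INV16 and the mutant.

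Against MIB control, Ifngr2 rose 2.27-fold with the INV16 ACD mutant, a log2 difference of 1.18 ± 0.25 (SE) with a 95% interval of 0.65 to 1.72 (limma, adjusted p = 0.0379). With INV16 it differed from MIB control by -0.80 ± 0.25 (SE, 95% interval -1.34 to -0.27), which did not pass the threshold (limma, adjusted p = 0.133). Both comparisons use the same control arrays. Their INV16 and mutant arrays are those of the contrast that chose the set through Ifngr2, so these p-values are not free of that choice. Within set B the mutant difference was 1.37, with the mutant at 8.35 to 8.61 and the controls at 6.36 and 7.78, and within set A the INV16 difference was -0.93, with INV16 at 6.32 to 6.70 and the controls at 7.25 to 7.61. The mutant call was near the threshold: it was lost in 13 of 21 alternatives, over which the adjusted p ran from 0.00950 to 0.432, among them the mean of both Ifngr2 probe sets (0.63, limma adjusted p = 0.0659) and the split as a block (1.37, limma adjusted p = 0.0744). Without MIB control replicate 7, the low control, the INV16 difference was -1.03 and passed the threshold. Leaving out 1 array at a time gave mutant differences of 0.96 to 1.31 and lost the call for 7 of 11 arrays, with the highest limma adjusted p without mutant replicates 1 (0.190) or 2 (0.180). The direction was the same in all 21 alternatives of each comparison.

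The other probe set of Ifngr2, 1423558_at, gave a different picture in the mutant. It read 6.97, 7.11, 6.98, 7.24 and 6.96 in MIB control, 6.21, 6.65 and 6.79 in INV16, and 7.08, 7.14 and 7.15 in the INV16 ACD mutant. The mutant arrays lay inside the control range. The INV16 arrays lay below every control, a pattern whose share over all probe sets was not counted. The mutant difference was 0.07 ± 0.13 (SE, 95% interval -0.21 to 0.35; limma, adjusted p = 0.833), an interval that does not reach the lower bound of the other probe set. The INV16 difference was -0.50 ± 0.13 (SE; limma, adjusted p = 0.0876), and -0.47 within set A, again with no overlap; without INV16 replicate 3 it passed (limma, adjusted p = 0.0460). The mutant difference was 0.02 within set B. INV16 replicate 4 read 7.54 here, above all other arrays. Over the 11 arrays the Ifngr2 probe sets correlated at r = 0.72, a description of arrays that fall into 3 groups.

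**Figure D1:**
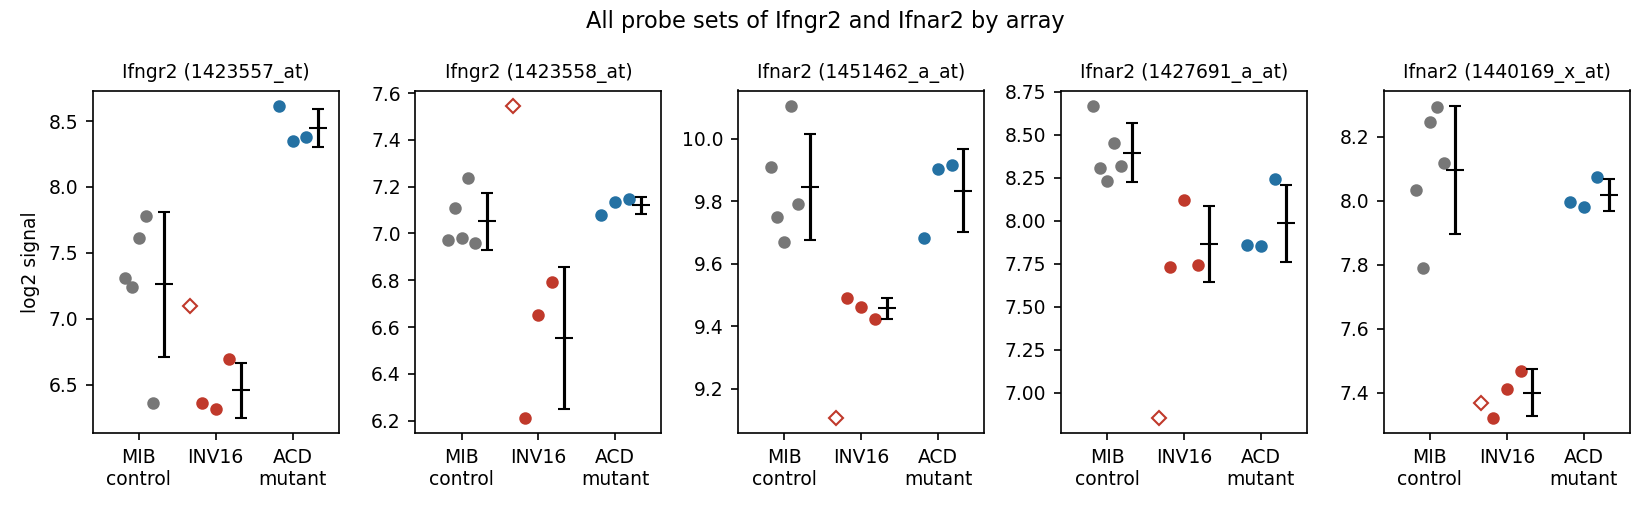
Signal of every probe set of Ifngr2 and Ifnar2, in log2 units, with each filled circle 1 array (MIB control grey, n = 5; INV16 red, n = 3; INV16 ACD mutant blue, n = 3), the open diamond INV16 replicate 4, and the bars the mean ± SD without it. The mutant arrays sit above every control on Ifngr2 1423557_at, at 8.35 to 8.61, and inside the control range on 1423558_at. INV16 replicates 1 to 3 sit below every control on all probe sets shown but Ifngr2 1423557_at. The share of all probe sets without such overlap was not counted.

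Ifngr1, the ligand-binding partner of Ifngr2, read 9.84, 9.51, 9.29, 9.44 and 8.92 in MIB control, 9.34, 9.79 and 9.06 in INV16, and 9.20, 8.83 and 9.40 in the INV16 ACD mutant. The groups overlapped throughout. INV16 minus MIB control was -0.0035 with a 95% interval of -0.45 to 0.44 (limma, adjusted p = 0.995), and the mutant difference was -0.26, with an interval of -0.70 to 0.19 (limma, adjusted p = 0.557). Within sets A and B these differences were -0.15 and -0.04. INV16 replicate 4 read 6.95, below every other array.

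Ifnar2 read lower with INV16 than in every control array on each of its 3 probe sets. That pattern was shown by 5.98% of all genes, and its share over all probe sets was not counted. The 3 probe sets stand for 1 gene on the same arrays, so they are not separate support. Of them, 1 passed the test. That one, 1440169_x_at, read 8.03, 7.79, 8.25, 8.29 and 8.12 in MIB control, 7.32, 7.41 and 7.47 in INV16, and 7.996, 7.98 and 8.07 in the INV16 ACD mutant. INV16 lay below every array of both other groups. Against MIB control the signal was 1.62-fold lower, a log2 difference of -0.70 ± 0.12 (SE; limma, adjusted p = 0.0145), and INV16 replicate 4, at 7.37, lay among the other INV16 arrays. The suffix _x marks a probe set whose probes can also bind other transcripts. This call was lost in 4 of 17 alternatives, among them the fit to set A alone (-0.62, limma adjusted p = 0.188) and the fits without INV16 replicate 1 (limma adjusted p = 0.0958) or replicate 2 (limma adjusted p = 0.0646).

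The probe set that represents Ifnar2, 1451462_a_at, read 9.91, 9.75, 9.67, 10.10 and 9.79 in MIB control, 9.49, 9.46 and 9.42 in INV16, and 9.68, 9.90 and 9.92 in the mutant. INV16 again lay below all control and mutant arrays, with a difference from MIB control of -0.39 ± 0.11 (SE, 95% interval -0.63 to -0.15) that was not called (limma, adjusted p = 0.112). The third probe set, 1427691_a_at, read 8.67, 8.31, 8.23, 8.45 and 8.32 in MIB control, 7.73, 8.12 and 7.74 in INV16, and 7.86, 7.85 and 8.24 in the mutant. On it INV16 differed from MIB control by -0.53 ± 0.14 (SE; limma, adjusted p = 0.0931), without overlap. Mouse Ifnar2 makes transmembrane and soluble forms, and which of them each probe set reads was not analysed here. Within set A the 3 probe sets differed by -0.32, -0.53 and -0.62, each without overlap between INV16 and MIB control. Averaged into 1 value per gene, Ifnar2 fell in INV16 by 0.54 (limma, adjusted p = 0.0169). In the INV16 ACD mutant the 3 probe sets went apart: the differences from MIB control were -0.01, -0.08 and, for 1427691_a_at, -0.41 (limma adjusted p = 0.974, 0.772 and 0.129). Within set B the 3 differences were -0.11, -0.19 and -0.40. There 1440169_x_at read 7.98 to 8.07 in the mutant and 8.12 and 8.29 in the 2 controls, and 1427691_a_at read 7.85 to 8.24 and 8.32 and 8.45, neither overlapping. Nothing is read from the lack of overlap within sets, since its share over all probe sets was not counted. Whether the INV16 and mutant differences of Ifnar2 were unequal was not tested.

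Ifnar1, the Tyk2-binding chain, read 7.52, 7.65, 7.33, 7.70 and 7.35 in MIB control, 7.78, 7.76 and 7.57 in INV16, and 8.26, 7.80 and 7.97 in the INV16 ACD mutant on 1449026_at. The mutant arrays were all above the controls, by a mean of 0.50 ± 0.13 (SE, 95% interval 0.22 to 0.78), without passing the threshold (limma, adjusted p = 0.0646). INV16 differed from MIB control by 0.19 ± 0.13 (SE; limma, adjusted p = 0.508), and the groups overlapped. The differences within sets were 0.48 for the mutant and 0.20 for INV16. The other Ifnar1 probe set, 1442222_at, read 5.73 to 6.57 in MIB control, 5.72 to 6.13 in INV16 and 6.00 to 6.34 in the mutant, with differences of -0.11 and 0.06, and of -0.04 in each set. INV16 replicate 4 read 7.94 and 5.94 on these probe sets.

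**Figure D2:**
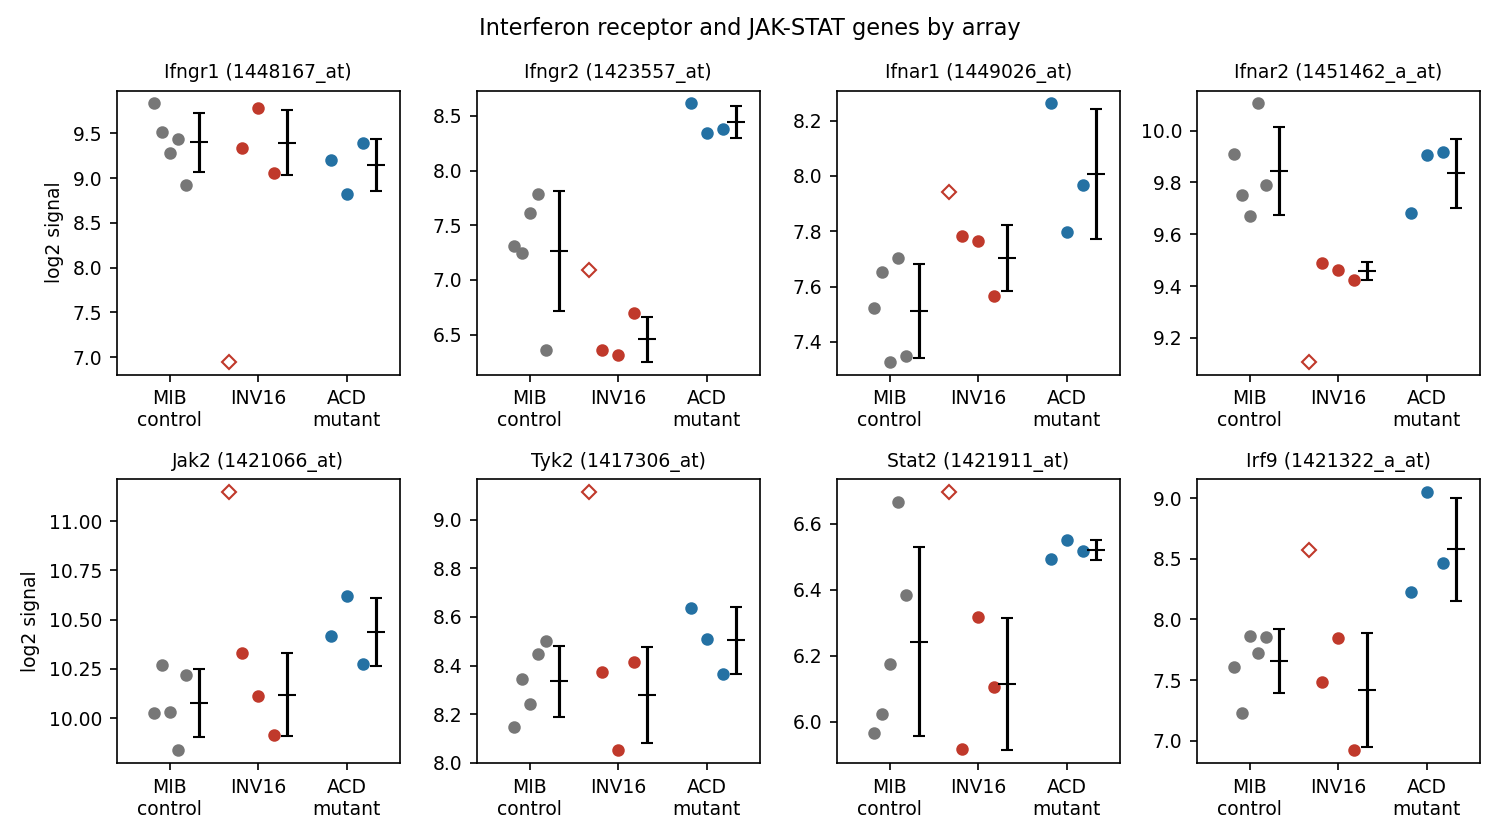
Signal of the representative probe set of each of the 8 genes, in log2 units, with each filled circle 1 array (MIB control grey, n = 5; INV16 red, n = 3; INV16 ACD mutant blue, n = 3), the open diamond INV16 replicate 4, and the bars the mean ± SD without it; the vertical axes differ between genes. The mutant arrays lie above all controls for Ifngr2, Ifnar1, Jak2 and Irf9, and INV16 replicates 1 to 3 lie below all controls for Ifnar2.

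Neither receptor kinase was called in either comparison. Jak2, bound to Ifngr2 and also to the receptors of many blood growth factors, read 10.03, 10.27, 10.03, 9.84 and 10.22 in MIB control, 10.33, 10.11 and 9.91 in INV16, and 10.42, 10.62 and 10.28 in the INV16 ACD mutant on 1421066_at. The lowest mutant array was barely above the highest control, and the mutant difference of 0.36 ± 0.13 (SE) was not called (limma, adjusted p = 0.148); it was 0.41 within set B. Its other probe set, 1421065_at, gave -0.02 in the mutant, and INV16 differed from MIB control by 0.04 (95% interval -0.24 to 0.33) and 0.02 on the 2 probe sets. On 1421065_at the mutant difference was 0.19 within set B, and within set A the INV16 differences were 0.01 and, for 1421065_at, -0.12. Tyk2, the kinase of Ifnar1, read 8.15 to 8.50 in MIB control, 8.05 to 8.41 in INV16 and 8.36 to 8.64 in the mutant on 1417306_at. Its differences from MIB control were -0.06 (95% interval -0.32 to 0.20) with INV16 and 0.17 with the mutant, and -0.02 and 0.13 on 1432576_at, none of them called, and within sets A and B they were 0.04 and 0.03 on 1417306_at and 0.0086 and 0.08 on 1432576_at. INV16 replicate 4 read 11.15 for Jak2 and 9.11 for Tyk2, above all other arrays.

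Irf9, the DNA-binding subunit of ISGF3 and itself a gene that interferon induces, read 7.61, 7.23, 7.86, 7.73 and 7.86 in MIB control, 7.48, 7.85 and 6.92 in INV16, and 8.22, 9.05 and 8.46 in the INV16 ACD mutant. The mutant arrays were above every control and every INV16 array in the fit; INV16 replicate 4 read 8.57. The mutant mean was 1.90-fold above MIB control, a difference of 0.92 ± 0.22 (SE, 95% interval 0.44 to 1.41) that lay just outside the threshold (limma, adjusted p = 0.0552). It was 0.79 within set B, it passed with quantile normalization (limma, adjusted p = 0.0466) and without MIB control replicate 7 (limma, adjusted p = 0.0387) or INV16 replicate 3 (limma, adjusted p = 0.0455), and it was 0.69 without INV16 ACD mutant replicate 2 (limma, adjusted p = 0.266). INV16 differed from MIB control by -0.24 (95% interval -0.72 to 0.25; limma, adjusted p = 0.664), and by -0.15 within set A.

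Stat2, the partner of Irf9, read 5.96, 6.03, 6.17, 6.67 and 6.38 in MIB control, 5.92, 6.32 and 6.11 in INV16, and 6.49, 6.55 and 6.52 in the mutant on 1421911_at. The mutant arrays were tightly grouped inside the control range. The mutant difference of 0.28 (limma, adjusted p = 0.349) was -0.0047 within set B, where the 2 control arrays were on average 0.47 above the 3 controls of set A. INV16 differed by -0.13 from MIB control (95% interval -0.46 to 0.20; limma, adjusted p = 0.736) and by 0.06 within set A. The other Stat2 probe set, 1450403_at, read 4.22 to 4.86 over the 11 arrays, below the filter of 5.10, and was not tested.

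Counted by gene, 0 of the 8 members were called between INV16 and MIB control, where limma called 1.70% of the 12918 genes tested; at an unadjusted p under 0.05 limma found 2 members (Ifngr2 and Ifnar2) and 2039 of all genes, or 15.8%. On single probe sets limma called 1 of 14 (Ifnar2), and it called 1.39% of all probe sets. Between the INV16 ACD mutant and MIB control, 1 of the 8 was called (Ifngr2, through which the set was chosen), with 1.70% of all genes called, and 1 of 14 probe sets, with 1.69% of all probe sets called. At an unadjusted p under 0.05 limma found 4 members (Ifngr2, Irf9, Ifnar1 and Jak2) and 2523 of all genes, or 19.5%. With INV16 replicate 4 in the fit, limma called 0 genes in this comparison (892 at an unadjusted p under 0.05, 3 of them members), and with the split as a block it called 20 and no member. Without overlap, 1 member was lower in INV16 than in MIB control (Ifnar2), a pattern shown by 5.98% of all genes, and 0 were higher, against 3.27% of all genes. In the mutant 4 members were higher than MIB control without overlap (Ifngr2, Ifnar1, Jak2 and Irf9), as were 6.93% of all genes, and 0 were lower, against 5.84% of all genes. The median difference over the 8 members was -0.09 for INV16, against -0.03 over all genes, and 0.32 for the mutant, against 0.01 over all genes.

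**Figure D3:**
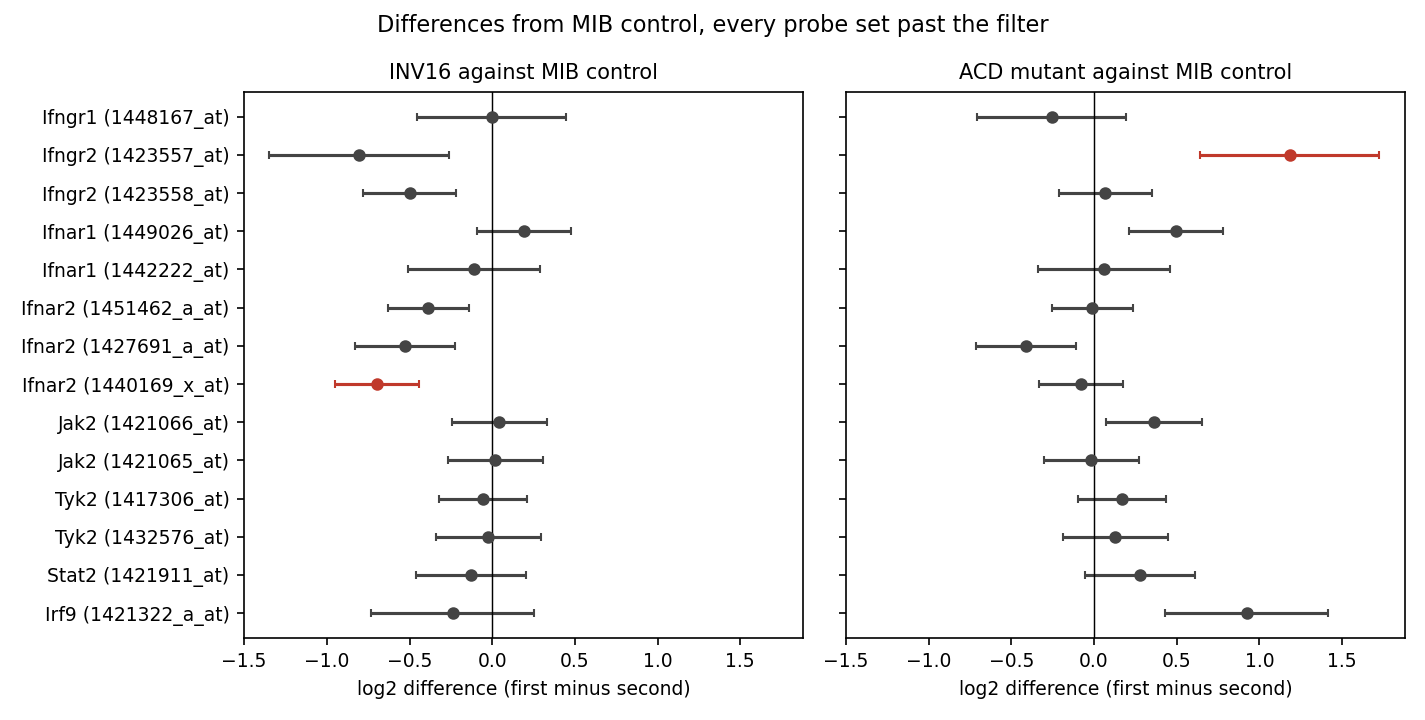
Differences from MIB control, in log2 units, for the 14 probe sets past the filter, INV16 on the left and the INV16 ACD mutant on the right; points are the fitted differences over the 11 arrays, bars their 95% intervals, and red marks an adjusted p under 0.05 in limma over all probe sets. Red are Ifnar2 1440169_x_at with INV16, at -0.70, and Ifngr2 1423557_at with the mutant, at 1.18, while Ifngr2 1423558_at is at 0.07 with the mutant.

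Set directly against the INV16 ACD mutant, the contrast that led to the choice of the genes, INV16 read 3.96-fold lower for Ifngr2 on 1423557_at (a log2 difference of -1.99), and -0.57 on 1423558_at. Irf9 was 2.23-fold lower (-1.16), and Stat2 (-0.41), Ifnar2 (-0.38), Jak2 (-0.32), Ifnar1 (-0.30) and Tyk2 (-0.22) were lower on average, with Ifngr1 higher by 0.25. The groups did not overlap for 5 members, Ifngr2, Ifnar1, Ifnar2, Stat2 and Irf9, all lower in INV16, beside 19.2% of all genes. Since the contrast chose the set, nothing is read from that count. INV16 replicates 1 to 3 were all in set A and the mutant arrays all in set B, so virus and spike-in split cannot be told apart here. From set A to set B, MIB control alone differed by 0.47 for Stat2, 0.23 for Irf9 and -0.32 for Ifngr2 1423557_at. With INV16 replicate 4 added, Irf9, Ifnar1 and Stat2 overlap, since it read 8.57, 7.94 and 6.70, and Ifngr2 (7.09) and Ifnar2 (9.11) stay lower on their representative probe sets. Of the 15 probe sets, INV16 replicate 4 was above the range of the other 11 arrays on 6, below it on 3 and within it on 6.

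The genes most like Ifngr2 over the 11 arrays, by Pearson correlation with 1423557_at, were Prim2, a primase subunit (r = 0.942), Psmd5, a proteasome assembly chaperone (r = 0.928), Gga2, an adaptor of Golgi sorting (r = 0.923), Zfand1 (r = 0.906) and Ms4a4c (r = 0.898). All 5 had their highest mean in the INV16 ACD mutant and their lowest in INV16. That is the order of Ifngr2 itself, which a ranking by correlation with it favours, so the order is no separate finding. Prim2 was at 9.73 ± 0.09 (SD, n = 5), 9.52 ± 0.16 (SD, n = 3) and 10.13 ± 0.04 (SD, n = 3) in MIB control, INV16 and the mutant. Ms4a4c had the widest span, at 6.35 ± 0.41, 6.08 ± 0.15 and 7.20 ± 0.13. Among the members themselves, Ifngr2 correlated with Irf9 at r = 0.66, Stat2 with Irf9 at r = 0.68, and Ifngr2 1423558_at with Ifnar2 1440169_x_at at r = 0.81, while the lowest values were those of Ifngr1 with Tyk2 1417306_at (r = -0.77) and Jak2 1421065_at with Tyk2 1417306_at (r = -0.64); these describe 11 arrays that share their groups.

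The other genes of the pathway were taken from lists drawn up by role. Over all genes tested, limma called 1.70% in each comparison. At an unadjusted p under 0.05 limma found 15.8% of all genes with INV16 and 19.5% with the mutant. Of 8 other receptor chains of the family, 4 passed the filter and 0 were called by limma in either comparison, nor did any reach an unadjusted p under 0.05. Il10rb, the gene between Ifnar2 and Ifnar1 and a chain of the interleukin 10 and interferon lambda receptors, differed from MIB control by 0.12 with INV16 (limma, adjusted p = 0.747) and by 0.23 with the mutant (limma, adjusted p = 0.420). Of the 10 interferon genes named on the array, 3 passed the filter and 0 were called by limma (0 and 1 at an unadjusted p under 0.05, with INV16 and with the mutant); Ifnz differed by 0.25 and 0.41 and Ifna1 by 0.10 and 0.14. The signals of Ifng (3.59 to 4.02) and Ifnb1 (4.31 to 4.66) were below the filter on all 11 arrays.

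Among the other JAK and STAT genes, 7 of 7 were tested and limma called 0 in either comparison. At an unadjusted p under 0.05 limma found 2 with INV16 and 0 with the mutant, beside 15.8% and 19.5% of all genes. Jak1, which both receptors also use, had means of 10.32 ± 0.36, 10.51 ± 0.21 and 10.05 ± 0.28 (SD, n = 5, 3 and 3) in MIB control, INV16 and the mutant. Jak3 differed by 0.50 and 0.38, Stat6 by -0.28 with INV16 and Stat4 by 0.26 with the mutant. Of 6 other IRF factors tested, limma called 0. At an unadjusted p under 0.05 limma found 1 with INV16 and 2 with the mutant, beside the same shares of all genes. Irf8, a factor of monocyte fate, had means of 7.67 ± 0.57, 6.77 ± 0.32 and 8.27 ± 0.23 (limma adjusted p = 0.125 and 0.239 against MIB control). Irf7, the factor that amplifies type I interferon, differed by 0.03 and 0.34, and Irf3, which starts its production, by -0.32 with INV16.

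Of 19 inhibitors of the pathway, limma found 3 with INV16 and 4 with the INV16 ACD mutant at an unadjusted p under 0.05, those 4 all higher. These were 15.8% and 21.1% of the list, near the 15.8% and 19.5% of all genes. At the adjusted threshold limma called 0 with INV16, and 1 rose with the mutant, where 1.70% of all genes were called. That gene was Socs2, a suppressor of growth hormone and cytokine receptors, with a log2 difference of 0.87 ± 0.17 (SE; limma, adjusted p = 0.0360), and the count of inhibitors called was 0 in 7 of 20 alternatives: with INV16 replicate 4, averaged probe sets or the split as a block, and without MIB control replicates 3 or 5 or mutant replicates 1 or 2. Usp18, which binds Ifnar2 and blocks its signal, had means of 6.31 ± 0.68, 5.23 ± 0.09 and 7.41 ± 0.77 in MIB control, INV16 and the mutant, neither difference being called (limma adjusted p = 0.169 and 0.119). Socs3 differed by 0.38 with INV16 and by 0.44 with the mutant (limma adjusted p = 0.185 and 0.0961).

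Downstream, the type I interferon targets had 0 of 22 tested genes called by limma with INV16 (1 at an unadjusted p under 0.05), and 4 rose with the INV16 ACD mutant, where 1.70% of all genes were called in either direction. In the mutant 20 of 22 differences were above 0, as were 51.4% of all genes, and the median was 0.55, against 0.01 over all genes. The 4 were Ifit1 (2.33), Rtp4 (2.10), Oasl2 (1.99) and Parp14 (0.94), with limma adjusted p of 0.0150, 0.0498, 0.0204 and 0.0360. At an unadjusted p under 0.05 limma found 12 of the 22 with the mutant, all higher, and 19.5% of all genes. Ifit1 binds viral RNA and Oasl2 belongs to the oligoadenylate synthetase family. Of 19 interferon gamma targets tested, limma called 0 with INV16 (4 at an unadjusted p under 0.05) and 2 rose with the mutant, the GTPases Iigp1 (1.65; limma, adjusted p = 0.0364) and Gbp2 (0.75; limma, adjusted p = 0.0427), with a median of 0.14. The 4 with INV16 were 21.1% of the list, beside 15.8% of all genes. With the mutant, 8 of the 19 interferon gamma targets reached an unadjusted p under 0.05 in limma, 5 higher and 3 lower, beside 19.5% of all genes. The lower ones were Psmb8 (-0.42), Psmb9 (-0.43) and Psmb10 (-0.35). The uncalled targets with the smallest p with INV16 were Cmpk2 (-0.54) and Oas1a (-0.53) among the type I targets and Cxcl10 (0.52) and Tapbp (-0.46) among those of interferon gamma (limma adjusted p = 0.276, 0.361, 0.0862 and 0.183). The interferon gamma count was 0 in 8 of 20 alternatives (INV16 replicate 4 included, only the groups compared, the split as a block, set B alone, and without MIB control replicates 3, 4 or 5 or mutant replicate 1), and its median was 0.026 without mutant replicate 2. The type I count ran from 0 to 7 over 20 alternatives, and the median from 0.26 to 0.70. The count was 0 with INV16 replicate 4 in the fit and with set B alone, and 1 with the split as a block. The medians in those settings were 0.55, 0.53 and 0.53. Without mutant replicate 2 the type I count was 1, with that lowest median, and without replicate 1 it was 0, with a median of 0.67. The summed type I target signal, on the log2 scale, was 13.26 to 13.69 in MIB control, 13.23 to 13.39 in INV16 and 13.73, 14.42 and 13.65 in mutant replicates 1 to 3, so that replicate 2 was highest and replicate 3 inside the control range; replicate 2 was also the highest for Irf9.

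**Figure D4:**
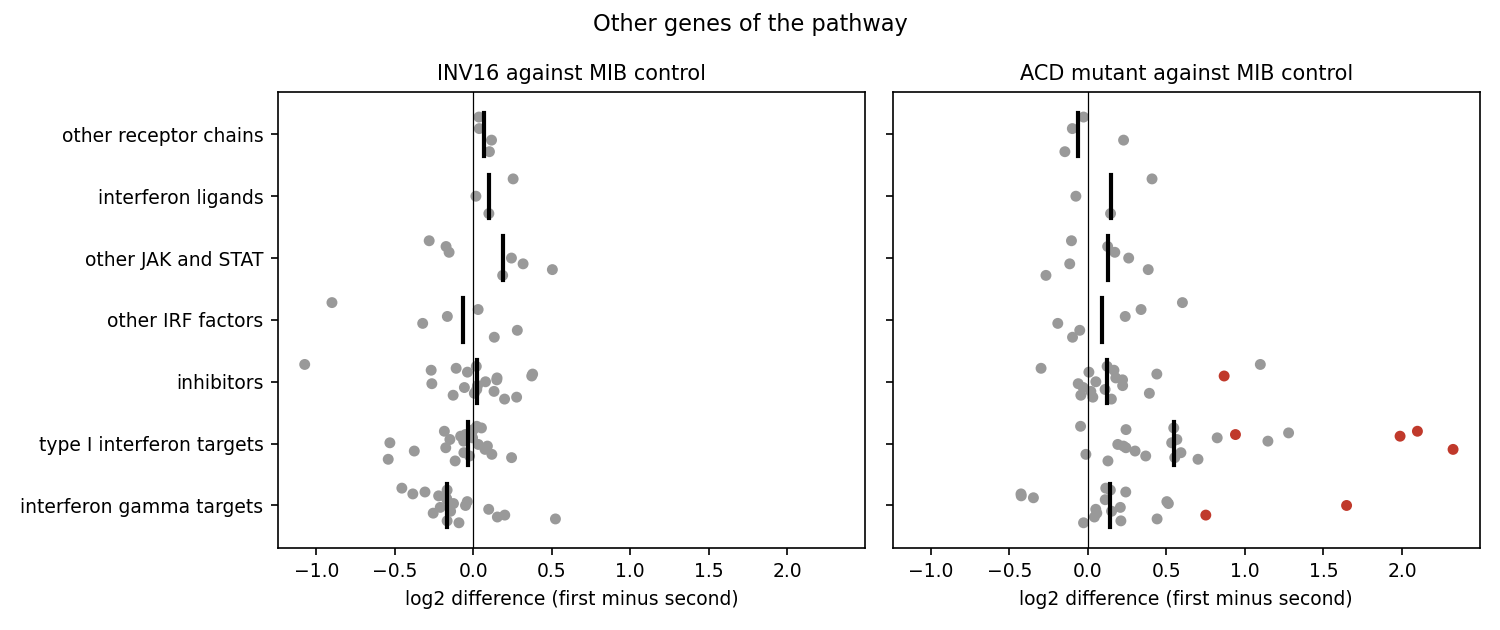
Differences from MIB control, in log2 units, of the other genes of the pathway by role, INV16 on the left and the INV16 ACD mutant on the right; each circle is 1 gene past the filter, the black line the list median, and red marks an adjusted p under 0.05 in limma over all genes. Red genes appear on the right side only, 4 type I interferon targets, 2 interferon gamma targets and 1 inhibitor; a difference between the sides was not tested here.

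Markers of other cell types moved beside these values. In the INV16 ACD mutant against MIB control, 6 of 6 megakaryocyte markers (median 0.83), 7 of 8 monocyte and macrophage markers (median 0.27) and 5 of 8 mast cell markers (median 0.08, with Hdc called at 1.56; limma, adjusted p = 0.0150) were above 0. Their summed signals were 10.67 to 12.82 in MIB control and 11.96 to 12.36 in the mutant for megakaryocytes, 11.48 to 12.86 and 12.40 to 12.67 for monocytes and macrophages, and 10.56 to 12.29 and 12.21 to 12.57 for mast cells. Neutrophil markers were above 0 for 1 of 7 in the mutant (median -0.26), where 51.4% of all genes were above 0. Also above 0 in the mutant were 3 of 3 erythroid markers (median 0.27) and 4 of 5 B cell markers (median 0.06). So were 3 of 5 dendritic cell, 3 of 5 T and natural killer cell, 2 of 5 stroma and endothelium and 3 of 7 sorted progenitor markers (medians 0.0085, 0.036, -0.0047 and -0.0038). In INV16 against MIB control, 0 of 7 neutrophil markers (median -0.50), 1 of 6 megakaryocyte markers (median -0.49) and 1 of 3 erythroid markers (median -0.36) were above 0, beside 43.7% of all genes. Above 0 were also 3 of 8 mast cell, 3 of 8 monocyte and macrophage and 2 of 5 B cell markers. The markers called with INV16 were S100a8 (neutrophil, -3.08), Pdgfrb (stroma and endothelium, -1.10), Nkg7 (T and natural killer cell, -0.73), Tcf4 (dendritic cell, 0.75) and Procr (sorted progenitors, 1.48), with limma adjusted p of 0.0144, 0.0132, 0.0150, 0.0169 and 0.0252. Pdgfrb and Nkg7 fell in lists with 4 of 5 genes above 0 (medians 0.22 and 0.04). Tcf4 rose in a list with 2 of 5 above 0 (median -0.06), and the sorted progenitor list had 4 of 7 (median 0.12). The part of these cell types in the values of the 8 members was not tested, nor was that of the Gapdh difference in mutant replicate 1. At Ifngr2 that array read 8.61, and the other mutant arrays, with Gapdh differences of 1.98 and 1.63, read 8.35 and 8.38.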

How the data were processed

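Each of the 12 samples was hybridised to 1 Affymetrix array after 2 rounds of cDNA amplification, per the labels' protocols. The deposited table holds 45101 probe sets as log2 signals already summarised by the authors; base 2 was inferred from their range, and the background correction and normalization are not given in the sources used here. No value measures background, and low signals are compressed, which understates their fold changes. Array medians were 5.62 to 5.79, so values were used as deposited, with 0 unused sample columns. Symbols came from the platform annotation: 34958 probe sets had 1 symbol, 932 several and 9211 none, and 64 control probe sets were left out. Matching by Entrez identifier to RefSeq covered 34754 and changed 0 symbols.

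Probe sets with a mean above the 40th percentile (5.10) were kept, 22694 with 1 symbol, and the highest stood for its gene. limma 3.58.1 (R 4.3.3) fitted group means over 11 arrays (8 residual and 5.04 prior degrees of freedom), two-sided, with Benjamini-Hochberg adjustment. On simulated data with 12918 genes it was checked for recovery of known differences. Alternatives were INV16 replicate 4 included, quantile normalization, other filters, other probe-set rules, only the groups compared, the spike-in split as a block or alone, the replicate number as a block, and each array left out.

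The members and lists were chosen with earlier results of these data known, so they are no independent support. Named from each list were up to 4 called genes with the smallest adjusted p, or the 2 with the smallest p where none was called, plus Ifng, Ifnb1, Jak1, Irf7, defining markers and the 5 genes most correlated with Ifngr2; the called markers and the mutant values of Usp18 and Socs3 were added after their values were seen. Alternatives were also run for the pathway lists, chosen after seeing the data.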

Additional observations from a re-analysis of the deposited data

How the results depend on the processing

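The 8 genes and their other probe sets gave 540 alternative values in the 2 comparisons with MIB control, of which 472 kept their direction and their side of the threshold, 17 lost a call, 6 gained one and 45 changed sign. The count of genes called with INV16 (219) was 20 with INV16 replicate 4 in the fit, 93 with only the 2 groups compared, 30 with set A alone and 29 to 332 with each array left out (332, 118 and 145 without MIB control replicates 4, 5 and 6, 29 and 66 without INV16 replicates 1 and 2); the split into higher and lower was 81 and 138, and 103 and 115 after quantile normalization. The count with the INV16 ACD mutant (220) was 0 with INV16 replicate 4, 384 over every probe set, 72 with only the 2 groups, 20 with the split as a block, 42 with set B alone and 3 to 591 with each array left out (116, 32 and 591 without MIB control replicates 3, 5 and 7, 102 without INV16 replicate 1, 3 and 5 without mutant replicates 1 and 2). Member genes called with INV16 were 1, not 0, with probe sets averaged or each tested on its own, and 0 to 1 with each array left out. With the mutant they were 2 with quantile normalization, 0 with INV16 replicate 4, averaged probe sets, only the 2 groups, or the split as a block or alone, and 0 to 2 with each array left out; the Ifngr2 call was kept without MIB control replicates 6 or 7 or INV16 replicates 2 or 3, and lost without any of the other 7 arrays.

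Deviations from the group means correlated from -0.33 to 0.09 between arrays of the same replicate number. Arrays of unlike numbers were not set beside them, so these values cannot tell whether the numbers pair the arrays. With the replicate block limma called 107 genes with the mutant and 0 members, Ifngr2 being at an adjusted p of 0.0525.

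The values that changed sign outside the left-out arrays were small and uncalled. With INV16 they were Tyk2 (0.15), Tyk2 1432576_at (0.17), Stat2 (0.017) and Irf9 (0.050) when INV16 replicate 4 was in the fit, Ifngr1 with quantile normalization (0.053) and with the replicate block (0.029), and, with the split as a block or alone, Tyk2 (0.036), Tyk2 1432576_at (0.0086), Stat2 (0.059) and Jak2 1421065_at (-0.12). With the mutant and the split they were Stat2 (-0.0047), Jak2 1421065_at (0.19) and Ifnar1 1442222_at (-0.038). With arrays left out, differences from MIB control crossed 0 for INV16 in Ifngr1 (-0.20 to 0.16), Irf9 (-0.45 to 0.010), Jak2 (-0.063 to 0.15), Tyk2 (-0.12 to 0.058), Tyk2 1432576_at (-0.12 to 0.056), Jak2 1421065_at (-0.048 to 0.092) and Ifnar1 1442222_at (-0.20 to 0.020), and for the mutant in Ifnar2 (-0.055 to 0.066), Jak2 1421065_at (-0.093 to 0.086) and Ifnar1 1442222_at (-0.036 to 0.18). The causes were not tested. The number of arrays, 3 in each virus group, limits the precision.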
